A study of Mus musculus with 8 samples.

Results

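Growing cells spend much of their energy on making ribosomes. RNA polymerase I (Pol I) transcribes the ribosomal RNA (rRNA) precursor in the nucleolus, small nucleolar ribonucleoprotein particles (snoRNPs) modify it, and a long series of assembly factors cuts, folds and packs it with ribosomal proteins into a small and a large subunit. Output of the pathway is known to be high in proliferating stem cells and to follow growth signals, among them the MYC transcription factors. The genes described here are 43 genes of this pathway: Pol I subunits, its initiation factors, proteins that organize the nucleolus, core proteins of the box C/D and H/ACA snoRNPs, and assembly factors of both subunits. They were taken by name, and each was read on the probe set named for it alone that had the highest mean over all arrays. Of the 43 genes, 42 were measured, out of 11372 genes that passed the intensity filter. Npm3, a nucleoplasmin family member, had no probe set named for it alone in the annotation used and was not analysed here.

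RNA was measured on 8 Affymetrix GeneChip arrays of the mouse genome. In total, 4 arrays held irr NSCs, which are neural stem cells derived from mouse embryonic stem cells that received 10 Gy of X-rays and were harvested 7 days later. The other 4 held non-irr NSCs of the same kind, grown in the same medium with EGF and FGF2. The NSC line and genotype used for the arrays are not named in the labels, and irr cells were not passaged after treatment according to the methods, which describe the irradiation as having been done 4 times. Values are log2 signals from RMA, and a log2 fold change is irr minus non-irr with the standard error (SE) of the limma model. Array medians ran from 6.22 to 6.24. Arrays correlated at 0.996 to 0.998 within a group and at 0.972 to 0.976 between groups. All 9 neural stem cell markers measured were over an intensity of 100 on every array, and their summed intensity, to which the bright Fabp7 and Vim add most, ran from 60356 to 64106 in irr NSCs, against 54858 to 57021 in non-irr NSCs. Of these 9, 4 were higher in irr NSCs, 3 missed the threshold, and Pax6 (log2 fold change -0.54) and Msi1 (-0.17) were lower. The summed intensity of 6 astrocyte markers, to which Gja1 adds most, ran from 13180 to 13744 in irr NSCs and from 6235 to 6733 in non-irr NSCs. Of these 6, 2 were over 100 on all arrays, 5 were higher, and Gfap, at means of 6.61 in irr and 6.80 in non-irr NSCs, was lower by the test (-0.18, limma adjusted p = 0.019). This Gfap probe set lay at the filter limit, over 100 on 4 arrays only, and its groups overlapped. The paper reports higher GFAP in irr NSCs by quantitative PCR and immunoblotting, which this dim probe set does not show. The summed intensity of 6 mesenchymal markers, to which Col3a1 adds most, ran from 2765 to 2953 in irr NSCs and from 1048 to 1097 in non-irr NSCs. Col3a1 (1.54), Lum (2.00) and Dcn (1.14) were higher, Lum and Dcn being over 100 on irr arrays alone. Col1a1, Col1a2 and Pdgfrb were under 100 on all arrays. Of 6 neuron markers, 5 were over 100 on at least 1 array. Syt1 was higher (1.04, over 100 on the irr arrays alone), and Tubb3 (-0.67), Dcx (-0.27) and Rbfox3 (-0.24) were lower. The bright Map2 (means of 12.85 in irr and 12.73 in non-irr NSCs) missed the threshold. Of 5 oligodendrocyte markers, 3 were over 100 on at least 1 array and missed the threshold, with Cnp at 12.77 in irr and 12.90 in non-irr NSCs. Under 100 on every array were 4 of 5 pluripotency markers (among them Nanog and Pou5f1), 5 of 6 microglial markers and 4 of 5 endothelial markers. The exceptions were close to that limit: Dppa5a (means of 6.96 in irr and 6.91 in non-irr NSCs) and Csf1r (6.88 in irr and 6.94 in non-irr NSCs) exceeded it on all 8 arrays, and the endothelial Kdr (6.57 in irr and 6.97 in non-irr NSCs, log2 fold change -0.40) on 6. In bulk RNA, fewer cells of a type and less RNA per cell cannot be told apart, and RMA gives every array the same distribution, so a change in total RNA per cell is not seen. The part of the astrocyte and mesenchymal markers in the results was not tested.

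All but 1 of the measured members were lower 7 days after irr. Of the 42 members, 41 were lower in irr NSCs at an adjusted p under 0.05, 0 were higher, and 1, Ubtf, did not pass the test (limma, Benjamini-Hochberg over 21919 probe sets). Of all 11372 genes, 37.1% were lower and 40.2% were higher by the same rule. Of the members, 19 were lower at least 2-fold, against 6.17% of all genes. The median log2 fold change was -0.93 over the members and 0.0069 over all genes. Log2 fold changes ran from -1.56 for Nop56 to -0.02 for Ubtf, and adjusted p among the 41 ran from 1.1e-09 to 0.00046. For 41 members every irr array lay below every non-irr array, which held for 35% of all genes. At the 2-fold line, Polr1c lay just inside with a log2 fold change of -1.02 and Polr1e just outside with -0.95.

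**Figure D1:**
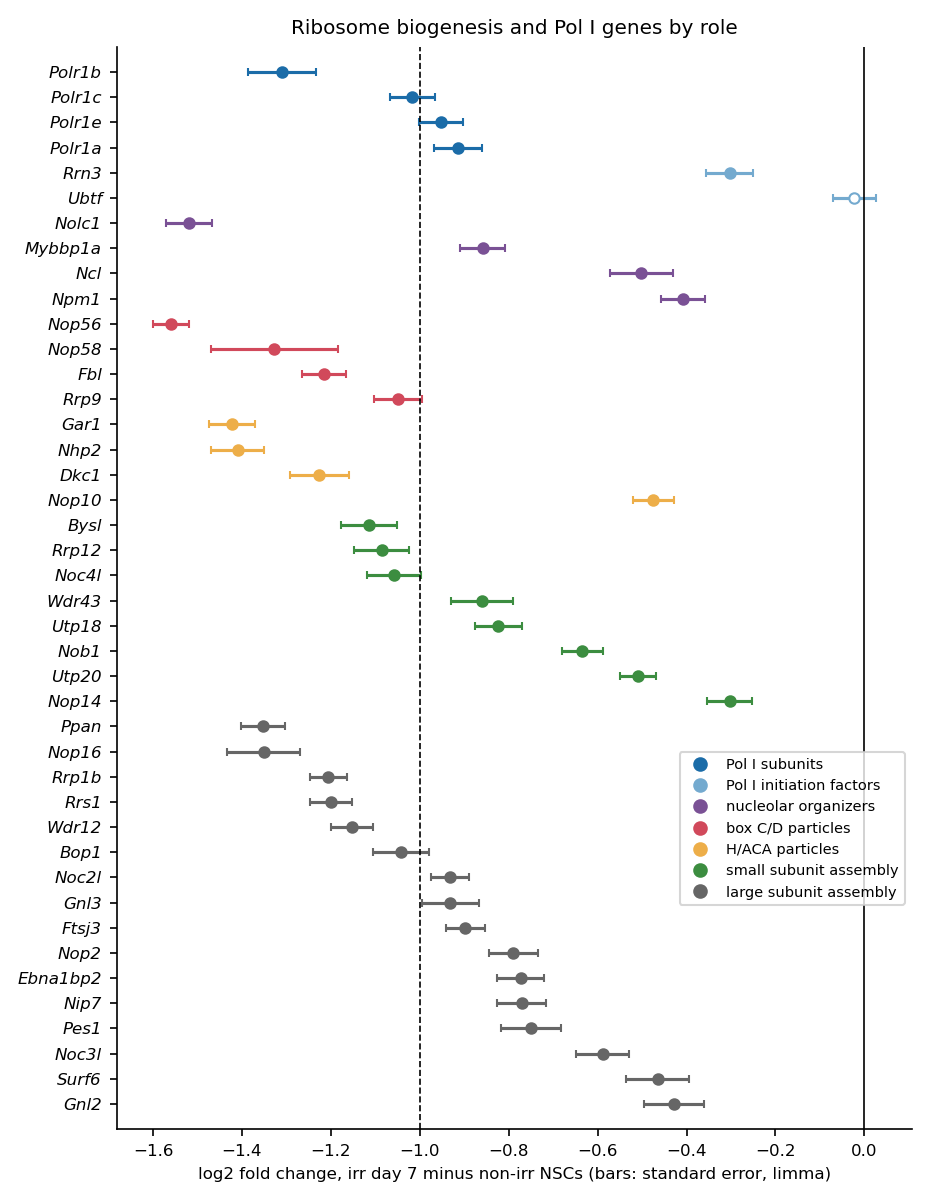
Log2 fold change of each measured member, irr day 7 minus non-irr NSCs, with the limma standard error as bars, grouped by role; filled points passed the test, the open point (Ubtf) did not, and the dashed line marks a 2-fold decrease. All 42 points lie at or below 0, from -1.56 for Nop56 to -0.02 for Ubtf.

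All 4 Pol I subunits fell, and on the brightest probe set of each gene Polr1b, the second largest subunit of the enzyme, fell most. Polr1b had log2 values of 8.06, 7.96, 8.23 and 8.19 in irr NSCs, against 9.42, 9.29, 9.41 and 9.57 in non-irr NSCs. The groups did not overlap, and the log2 fold change was -1.31 (SE 0.076, adjusted p = 1.9e-07), so that irr NSCs kept 40.3% of the non-irr signal. Polr1a, the largest and catalytic subunit, had 8.79, 8.83, 9.00 and 8.86 in irr NSCs and 9.72, 9.79, 9.82 and 9.80 in non-irr NSCs (log2 fold change -0.91, SE 0.054). A second probe set of Polr1a gave -1.39 (SE 0.17), beyond the change of Polr1b, so the order of these 2 subunits turned with the probe set. Polr1c, a subunit that Pol I shares with Pol III, had a log2 fold change of -1.02 (SE 0.051), and Polr1e, a peripheral subunit, one of -0.95 (SE 0.050). The change of 2 genes was compared on the same arrays through the log2 difference between them, with an exact two-sided permutation test over the 70 splits of the arrays, adjusted over the 21 pairs that could be tested. The smallest p this design can give is 0.029. In these data 13 of the 21 pairs reached it, which sets their adjusted p at 0.046. That value depends on how many pairs reach the smallest p, and several pairs share a gene. By this test, and on the brightest probe sets, Polr1b fell further than Polr1a by 0.40, than Polr1c by 0.29 and than Polr1e by 0.36 on the log2 scale (exact adjusted p = 0.046 each). The difference between Polr1a and Polr1c was 0.10 with a 95% interval of -0.03 to 0.23 (exact adjusted p = 0.046). This call was lost when any 1 of the 4 irr arrays or non-irr replicate 1 was left out. Polr1a and Polr1e differed by 0.04 with a 95% interval of -0.05 to 0.13 (exact adjusted p = 0.44). Polr1c and Polr1e differed by -0.06 with a 95% interval of -0.12 to -0.0068 (exact adjusted p = 0.086), a difference that passed the test only without non-irr replicate 3. For Polr1c with Polr1a and with Polr1e, interval and permutation call thus disagreed.

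Of the initiation factors, Rrn3 fell slightly and Ubtf did not pass the test. Ubtf, which binds the rRNA gene promoter and keeps the repeats open, had 11.10, 11.14, 11.15 and 11.18 in irr NSCs, against 11.13, 11.12, 11.13 and 11.28 in non-irr NSCs. These groups overlapped, and the log2 fold change was -0.02 (SE 0.049, adjusted p = 0.68). It was 0.014 (adjusted p = 0.79) without non-irr replicate 4, the highest array, and 0.10 (adjusted p = 0.088) with arrays centred on reference genes. A dimmer second probe set of Ubtf, at a mean of 7.30 in irr NSCs, had a log2 fold change of -0.58 (SE 0.16, adjusted p = 0.0096), so the probe sets of this gene disagreed. Rrn3, which carries Pol I to the promoter and is a target of growth signals, had 10.05, 10.13, 10.21 and 10.19 in irr NSCs and 10.52, 10.43, 10.39 and 10.45 in non-irr NSCs. Its log2 fold change of -0.30 (SE 0.052, adjusted p = 0.00046) was among the smallest of the members called. On the brightest probe sets, Ubtf and Rrn3 differed in their change by 0.28 (exact adjusted p = 0.046). The dimmer probe set of Ubtf fell further than Rrn3, so the order of these 2 genes turned with the probe set.

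MYC proteins with their partner Max bind the E-box, spelled CACGTG, and the promoters of the members were read for these letters in RefSeq windows from 250 bases before to 50 bases after each start (mouse assembly GRCm38.p6). The motif is its own reverse complement, so one search covers both strands. Windows were found for 36 members, and none for Fbl, Bop1, Rrp12, Npm1, Gnl2 and Rrs1. The motif was in the windows of 7 members, or 19.4%, against 11.8% of the 9244 measured genes with a window and 8.09% of all 27025 genes with one. Rrn3 was the only member with more than 1 match, at -215 and -48 from its start. Its 250 bases before the start are shown because it is the only member with 2 matches, with the E-boxes in capitals (chr16:13780449-13780698, + strand).
Rrn3: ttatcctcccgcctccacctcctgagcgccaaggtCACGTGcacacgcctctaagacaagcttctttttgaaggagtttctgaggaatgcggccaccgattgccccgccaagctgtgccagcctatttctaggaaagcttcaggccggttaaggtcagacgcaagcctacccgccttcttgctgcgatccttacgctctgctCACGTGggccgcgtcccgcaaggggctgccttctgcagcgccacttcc

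The other 6 members with the motif are shown as 30 bases around it, 5′ to 3′ on the strand of the gene, so that the flanking bases can be compared. They lie at chr17:71616220-71616249 (Wdr43, + strand), chr11:72441347-72441376 (Mybbp1a, + strand), chr11:93885769-93885798 (Utp18, - strand), chr6:125131811-125131840 (Nop2, + strand), chr11:3963965-3963994 (Pes1, + strand) and chr10:88826765-88826794 (Utp20, - strand).
Wdr43: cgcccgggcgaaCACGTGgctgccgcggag
Mybbp1a: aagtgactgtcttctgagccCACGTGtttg
Utp18: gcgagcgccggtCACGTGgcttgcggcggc
Nop2: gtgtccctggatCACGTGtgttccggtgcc
Pes1: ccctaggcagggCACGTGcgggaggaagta
Utp20: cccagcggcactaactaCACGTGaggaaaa
The motif began before the start in Utp18 (at -20) and Nop2 (at -60) and after it in Pes1 (base 3), Wdr43 (base 18), Utp20 (base 38) and Mybbp1a (base 41). The median log2 fold change was -0.79 over the 7 members with the motif and -1.02 over the 29 without it, and the members with the largest decreases, Nop56, Nolc1, Gar1 and Nhp2, had no match in their windows. A second set of letters, CCGGAAG, the core bound by ETS factors, was searched on both strands after these sequences had been seen. It does not overlap the E-box, and it was in the windows of 14 of the 36 members, or 38.9%, against 20.4% of the measured genes. The median log2 fold change was -0.88 over the members with it and -0.92 over those without it. A match describes the letters of the window and is no evidence of binding. The lack of a match says nothing about sites outside the window. The part of either motif in the changes was not tested.

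The proteins that organize the nucleolus fell by 0.41 to 1.52 on the log2 scale. Nolc1, a phosphoprotein that travels between nucleolus and Cajal bodies and binds snoRNPs, had 10.08, 9.94, 10.02 and 10.01 in irr NSCs, against 11.53, 11.47, 11.63 and 11.49 in non-irr NSCs. This was a log2 fold change of -1.52 (SE 0.052, adjusted p = 5.4e-09) and a fold decrease of 2.87, with a wide gap between the groups. Mybbp1a, a nucleolar protein that can bind transcription factors, had a log2 fold change of -0.86 (SE 0.051). Nucleolin (Ncl) had 12.97, 13.06, 12.87 and 13.02 in irr NSCs and 13.31, 13.56, 13.59 and 13.46 in non-irr NSCs, a log2 fold change of -0.50 (SE 0.071). Nucleophosmin (Npm1), the chaperone of the granular part of the nucleolus, had 13.52, 13.66, 13.54 and 13.51 in irr NSCs and 13.93, 13.99, 13.99 and 13.95 in non-irr NSCs, a log2 fold change of -0.41 (SE 0.049). For both, every irr array lay below every non-irr array, and irr NSCs kept 70.6% and 75.4% of the non-irr signal of Ncl and Npm1.

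The box C/D particles, which guide 2′-O-methylation of rRNA, were the only role in which every member fell at least 2-fold. Nop56, a scaffold protein of the particle, had the largest decrease of all members. It had 10.92, 10.90, 10.90 and 10.84 in irr NSCs, against 12.43, 12.46, 12.48 and 12.45 in non-irr NSCs. Replicates of a group lay within 0.1 of each other, and the log2 fold change was -1.56 (SE 0.040, adjusted p = 1.1e-09), or 33.9% of the non-irr signal. Fibrillarin (Fbl), the methyltransferase of the particle, had 11.85, 11.81, 11.97 and 11.84 in irr NSCs and 13.05, 13.05, 13.12 and 13.11 in non-irr NSCs (log2 fold change -1.22, SE 0.049). Nop58, the paralog of Nop56 in the particle, had 11.05, 10.79, 10.45 and 10.39 in irr NSCs and 12.00, 12.11, 12.11 and 11.77 in non-irr NSCs. Its irr arrays had the widest spread of any member (SD 0.31, n = 4), with a log2 fold change of -1.33 (SE 0.14) that was -1.08 without irr replicates 3 and 4. Rrp9, a protein particular to the U3 particle that starts small subunit processing, had a log2 fold change of -1.05 (SE 0.054). Nop56 fell further than Fbl by 0.35 on the log2 scale (exact adjusted p = 0.046). The difference between Fbl and Nop58 was 0.11 with a 95% interval of -0.36 to 0.58, and that between Nop56 and Nop58 was -0.23 with one of -0.62 to 0.16, both too wide to tell the changes apart.

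In the H/ACA particles, which convert uridine to pseudouridine and in part also serve telomerase RNA, all 4 core proteins fell, and Nop10 fell least. Gar1 had 10.42, 10.31, 10.46 and 10.36 in irr NSCs, against 11.88, 11.73, 11.82 and 11.82 in non-irr NSCs (log2 fold change -1.42, SE 0.051). Nhp2 had 11.59, 11.61, 11.79 and 11.64 in irr NSCs and 13.05, 12.98, 13.16 and 13.07 in non-irr NSCs (log2 fold change -1.41, SE 0.060). Their changes differed by -0.01 with a 95% interval of -0.14 to 0.11 (exact adjusted p = 0.74). Dkc1 (dyskerin), the pseudouridine synthase, had a log2 fold change of -1.23 (SE 0.066) on its brightest probe set. There its differences from Gar1 and Nhp2 passed the test only when irr replicate 3 was left out. The 2 other probe sets of Dkc1 gave -1.60 and -1.54, beyond the changes of Gar1 and Nhp2, so the order of these 3 genes turned with the probe set. Nop10, the small protein that holds Dkc1 to Nhp2, had 12.88, 12.86, 12.96 and 12.85 in irr NSCs and 13.40, 13.34, 13.39 and 13.31 in non-irr NSCs. Its log2 fold change was -0.47 (SE 0.045), and it fell less than Dkc1 by 0.75 (SE 0.094), than Gar1 by 0.95 (SE 0.032) and than Nhp2 by 0.93 (SE 0.042), each at an exact adjusted p of 0.046.

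Nop10, Ncl and Npm1 were the 3 members whose probe sets had a mean of 13 or more, near the top of the scale. Of the 306 genes on the arrays with such a signal, 42.5% were lower and 0.65% were lower at least 2-fold, against 37.1% and 6.17% of all genes. Other probe sets of these 3 genes were dimmer. The second probe set of Nop10 gave -0.68 and that of Npm1 -0.56, while the 3 others of Ncl gave -0.71, -0.70 and -0.42. The part of signal level in the small decreases of these 3 genes was not tested. Over all 42 members, level and log2 fold change had a Pearson r of 0.013 and a Spearman rho of -0.049, across genes that share the same 8 arrays.

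**Figure D2:**
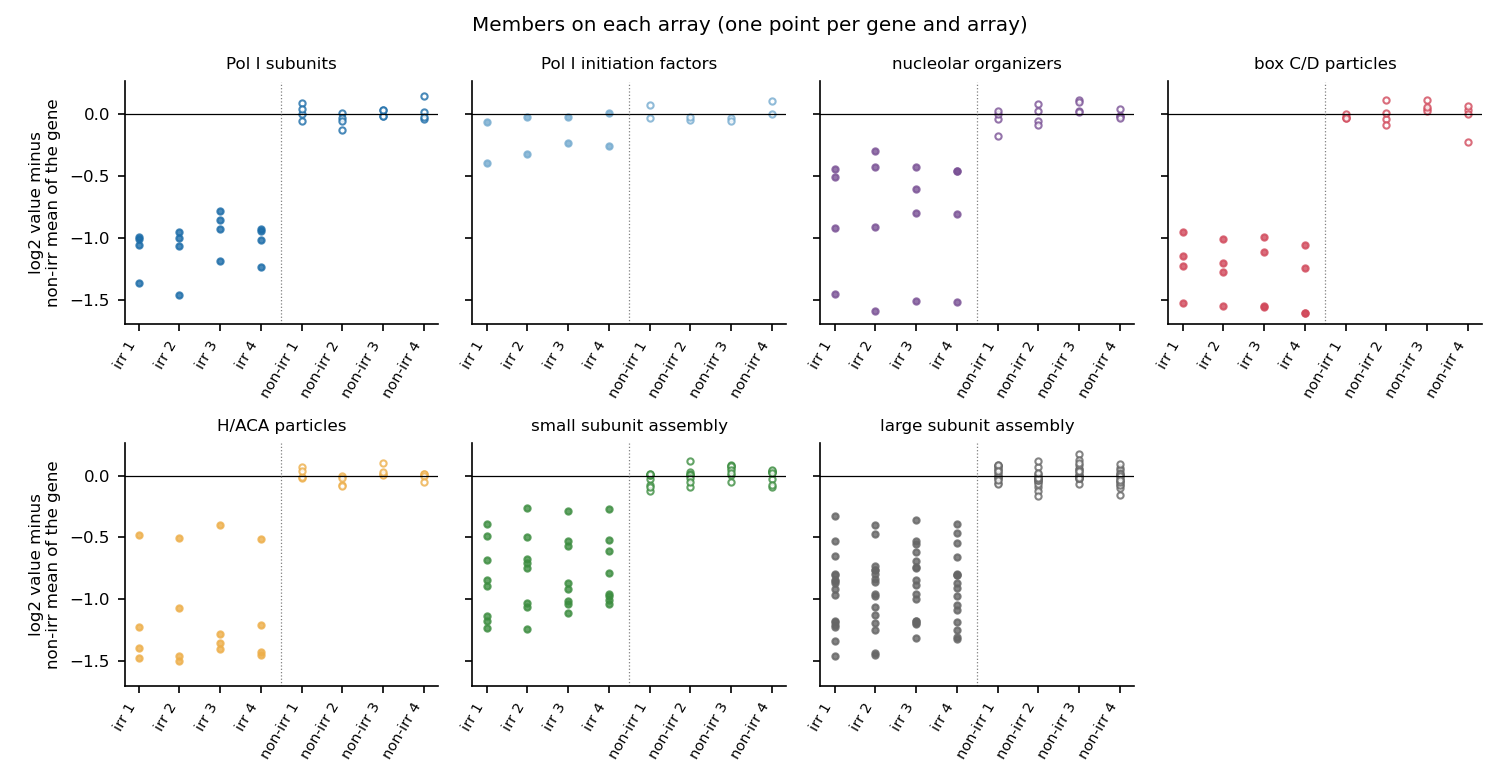
Log2 value of each member on each array minus the mean of that gene in non-irr NSCs, one panel for each role, with irr arrays as filled points on the left and non-irr arrays as open points on the right of each panel. The groups separate in every role except for Ubtf, the upper row of points among the initiation factors.

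All 8 assembly factors of the small subunit fell, 3 of them at least 2-fold. Bysl, needed for late maturation of the particle and its export, had 9.66, 9.60, 9.80 and 9.83 in irr NSCs, against 10.84, 10.74, 10.88 and 10.88 in non-irr NSCs (log2 fold change -1.11, SE 0.063). Rrp12, known in yeast as an export factor of pre-ribosomes, had a log2 fold change of -1.09 (SE 0.062). Noc4l had one of -1.06 (SE 0.061), while Nop14, its binding partner in yeast, had 9.16, 9.29, 9.26 and 9.28 in irr NSCs and 9.56, 9.57, 9.62 and 9.47 in non-irr NSCs, a log2 fold change of only -0.30 (SE 0.050). The difference between these partners was not among the pairs tested. The processome components Wdr43, Utp18 and Utp20 had log2 fold changes of -0.86, -0.82 and -0.51, and Nob1, the nuclease that makes the final cut at the 3′ end of 18S rRNA, had one of -0.63.

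All 16 assembly factors of the large subunit fell as well, 6 of them at least 2-fold. Ppan, the mouse counterpart of a yeast 60S assembly factor, had 9.04, 8.92, 9.06 and 9.07 in irr NSCs, against 10.35, 10.33, 10.43 and 10.39 in non-irr NSCs (log2 fold change -1.35, SE 0.049). Nop16 had 9.37, 9.40, 9.63 and 9.51 in irr NSCs and 10.82, 10.66, 11.00 and 10.83 in non-irr NSCs (log2 fold change -1.35, SE 0.082). Rrp1b had a log2 fold change of -1.21 and Rrs1, which helps to bring in the 5S particle, one of -1.20. Noc2l and Ftsj3, 2 nucleolar factors, had -0.93 and -0.90. Nop2, an rRNA cytosine methyltransferase, had -0.79, Ebna1bp2 and Nip7 had -0.77 each, and Noc3l, Surf6 and Gnl2 had -0.59, -0.47 and -0.43.

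Within the PeBoW complex, which processes the precursor of 28S rRNA, the subunits fell unequally. Pes1 had 10.43, 10.44, 10.68 and 10.64 in irr NSCs and 11.30, 11.24, 11.30 and 11.36 in non-irr NSCs (log2 fold change -0.75, SE 0.067). Bop1 (log2 fold change -1.04) fell further than Pes1 by 0.29 and Wdr12 (log2 fold change -1.15) by 0.40 (exact adjusted p = 0.046 each). Bop1 and Wdr12 differed by 0.11 with a 95% interval of -0.02 to 0.24 (exact adjusted p = 0.12), and passed the test only without irr replicate 1. On the brightest probe sets, Noc2l fell further than Noc3l by 0.34 (SE 0.047, exact adjusted p = 0.046). A second probe set of Noc2l gave -0.43, less than the -0.59 of the brightest of Noc3l, and a second one of Noc3l gave -0.11. The order of these 2 genes thus depended on the probe sets compared. Gnl3 (nucleostemin), a nucleolar GTPase known from neural and other stem cells, had 10.78, 10.80, 10.64 and 10.59 in irr NSCs, against 11.56, 11.75, 11.62 and 11.60 in non-irr NSCs. Its log2 fold change was -0.93 (SE 0.064), and it fell further than the related GTPase Gnl2 by 0.50 (SE 0.066, exact adjusted p = 0.046).

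**Figure D3:**
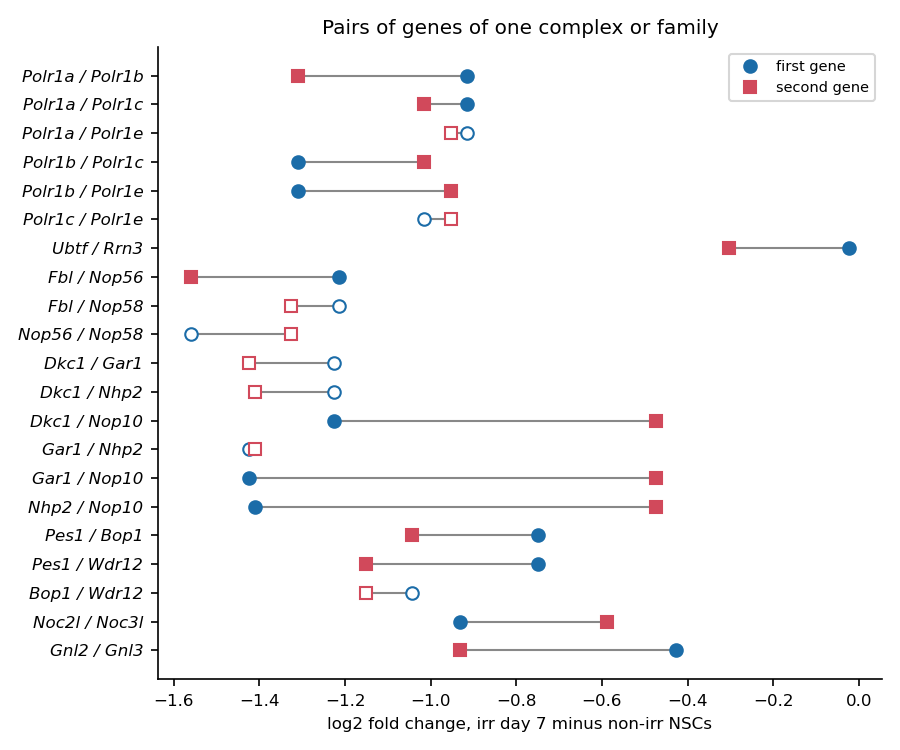
Log2 fold changes, irr day 7 minus non-irr NSCs, of the 21 pairs of genes tested, joined by a line, with the first gene as a circle and the second as a square; filled symbols mark the 13 pairs whose changes differed at an exact adjusted p of 0.046. The 3 longest lines are those of Nop10 with Dkc1, Gar1 and Nhp2.

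Second probe sets give a check on the same genes. The members had 85 probe sets in all, of which 77 passed the intensity filter and 35 were not the brightest of their gene. Of these 35, 32 fell, 15 of them by 2-fold or more, 1 rose and 2 missed the threshold. Among those that fell, a dim probe set of Nop16 (-0.59, irr mean 6.34) passed the filter through the non-irr arrays alone. A probe set of Ebna1bp2 (-0.22, limma adjusted p = 0.0498) exceeded an intensity of 100 on 5 arrays only. Of all probe sets tested, 37.1% were lower, 5.98% at least 2-fold, and 38% were higher. The median log2 fold change of the 35 was -0.81, and 21 of them gave a larger decrease than the brightest probe set of the gene. The one that was higher belongs to Gnl2, had a mean of 6.83 in irr NSCs, exceeded an intensity of 100 on 4 arrays only, and had a log2 fold change of 0.68 (SE 0.10), while the other 2 probe sets of Gnl2 gave -0.43 and -0.64. The 2 that did not pass the test were probe sets of Pes1 (-0.06, mean over the arrays 7.70) and Noc3l (-0.11, mean 7.66). Both were over an intensity of 100 on all 8 arrays, so the probe sets of these genes disagreed. Probe sets of 9 of the 26 genes with more than 1 spanned over 0.5 on the log2 scale. Among these, Nolc1 gave -1.52, -0.79 and -1.84, and Polr1a gave -0.91, -1.39 and -0.62.

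**Figure D4:**
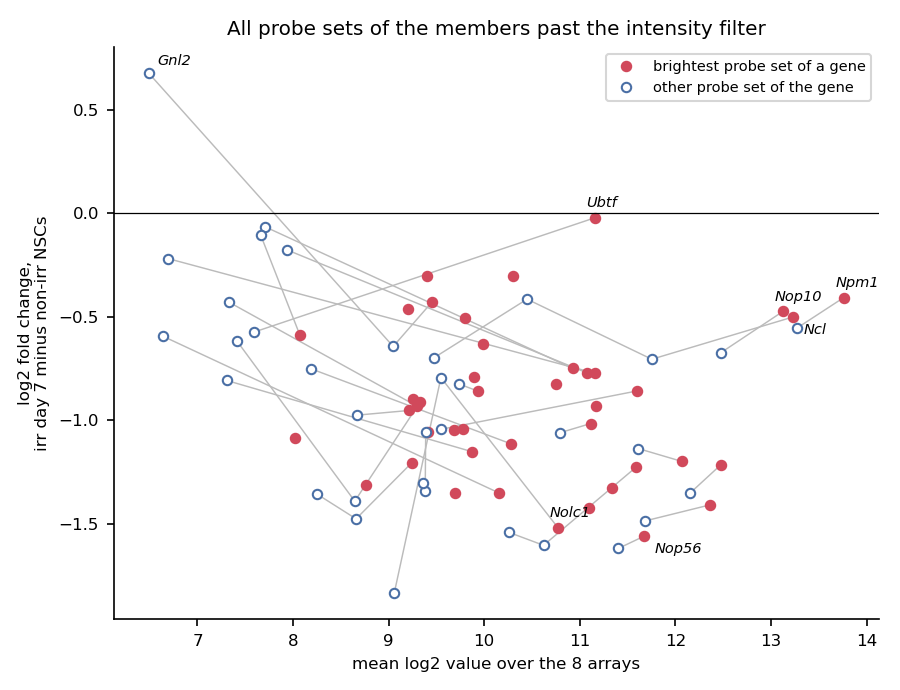
Mean log2 value over the 8 arrays (x axis) and log2 fold change, irr day 7 minus non-irr NSCs (y axis), of the 77 probe sets of the members past the intensity filter; filled points are the brightest probe set of a gene, open points its others, and lines join probe sets of 1 gene. Only 1 point, a dim probe set of Gnl2 at 0.68, lies above 0.

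The decrease was even across arrays. The mean over the 42 members, relative to the non-irr mean of each gene, was -0.94, -0.93, -0.89 and -0.91 on irr replicates 1 to 4, against -0.0017, -0.022, 0.033 and -0.0093 on non-irr replicates 1 to 4. Irr replicate 3 was the highest irr array for 24 members, and irr replicate 1 was the lowest for 19. RNA quality moved with the groups: the gap between the 3′ and 5′ probe sets of β-actin was 0.51 ± 0.07 in irr NSCs and 0.26 ± 0.03 in non-irr NSCs (SD, n = 4 each, exact permutation p = 0.029, adjusted p = 0.048 over 5 control transcripts). It was 1.06 in irr and 0.52 in non-irr NSCs for pyruvate carboxylase and 0.85 in irr and 0.35 in non-irr NSCs for the transferrin receptor, at the same exact p. That of 18S rRNA (-0.86 in irr and -1.04 in non-irr NSCs) did not pass the test. That of Gapdh was -0.06 ± 0.03 in irr NSCs and -0.08 ± 0.04 in non-irr NSCs (SD, n = 4 each, exact permutation p = 0.71). The part of this gap in the decrease of the members was not tested.

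Most other genes of the pathway were lower too. Among 12 other genes of the Pol I machinery (median log2 fold change -0.44), 10 were lower and 1 was higher, and 1 missed the threshold. Polr2f (-1.10) and Polr2h (-0.72), subunits shared with other polymerases, and Polr1g (-0.72), the partner of Polr1e, changed most, and Taf1a, a subunit of the promoter selectivity factor, was higher by 0.21. All 8 other genes of snoRNP assembly were lower (median -0.78), led by the helicases Ruvbl2 (-1.44) and Ruvbl1 (-1.13) and by the H/ACA chaperone Shq1 (-1.18). Of 44 further small subunit factors, 41 fell and 3 missed the threshold (median -0.64), with the largest changes in Lyar (-1.48), Rcl1 (-1.11) and Wdr46 (-1.09). Of 41 further large subunit factors, 35 fell, 5 missed the threshold and 1 was higher (median -0.62). Wdr74 (-1.09), Rpf2 (-1.08) and Rrp15 (-1.08) fell most, and the one higher was Sbds (0.36), which acts at a late, cytoplasmic step of 60S maturation. All 22 nucleases and cofactors that trim rRNA, most of them from the exosome and RNase P and MRP, were lower (median -0.65). Rpp40 was at -1.66, Exosc8 at -1.60 and Dis3 at -1.59. One of the 22, Exosc6 (-0.78), had an irr mean of 5.66, under an intensity of 100. It passed the filter through 1 non-irr array alone. Taf1a and Sbds are named because they went the other way, a choice made after their values were seen.

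The median of the genes for cytosolic ribosomal proteins was nearer to 0. Genes were taken by a pattern of their symbol, and only from probe sets with 1 symbol. Of the 50 cytosolic genes so found, 46 passed the filter. Of these 46, 26 fell, 1 rose and 19 missed the threshold, and the median log2 fold change was -0.13. The part of signal level in this median was not tested. Only Rpl14 (-1.38) and Rps25 (-1.12) were lower at least 2-fold. Rpl7l1, a gene like Rpl7 that the pattern took in by its name, followed with -0.63. Of 76 mitochondrial ribosomal protein genes, 69 were lower and 1 was higher (median -0.55), and Mrps27 (-1.07) and Mrpl12 (-1.04) were lower at least 2-fold. The 1 higher in each list, Rps27l (0.17) and Mrps6 (0.75), was named after its value was seen.

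Among the other polymerases, 12 of 19 Pol III subunits and factors fell, 3 rose and 4 missed the threshold (median -0.22). Polr3k fell by 1.86 on the log2 scale, with Gtf3a at -0.96. Polr3g, the subunit isoform known from embryonic stem cells, had a log2 fold change of -1.53, but its irr mean of 5.68 was under an intensity of 100 and it passed the filter through the non-irr arrays alone. The paralog of Polr3g, Polr3gl, was higher by 0.83, and was named after its value was seen. Of 8 subunits of Pol II, 5 fell and 3 missed the threshold (median -0.32), with Polr2i at -0.80, Polr2d at -0.50 and Polr2c at -0.49. Of the 4 MYC family and partner genes measured, 3 were lower and 1 was higher. Mycl had a log2 fold change of -0.90 (SE 0.054) with its irr mean of 6.35 under an intensity of 100, so that it too passed the filter through the non-irr arrays alone, Myc one of -0.45 (SE 0.060) at means of 10.82 in irr and 11.27 in non-irr NSCs, and Max was higher by 0.26 (SE 0.052). For scale, all 38 DNA replication genes fell (33 by 2-fold or more, median -1.51), led by Tk1 (-2.62), Gins1 (-2.47) and Cdc6 (-2.44). The differences between lists were not tested.

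**Figure D5:**
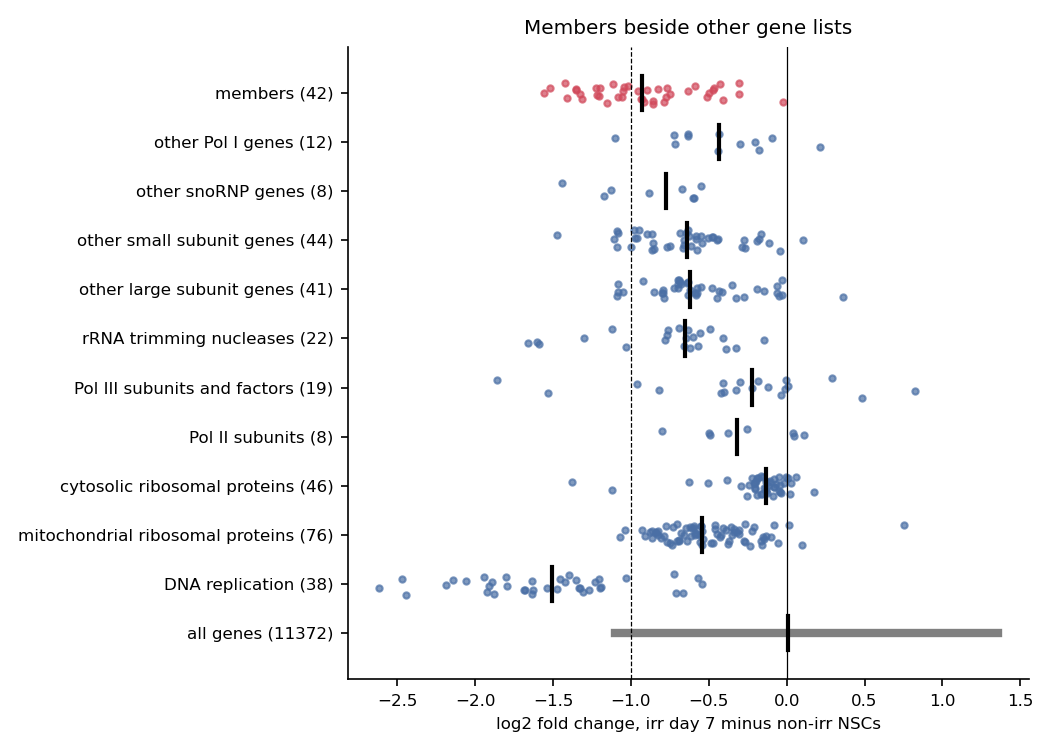
Log2 fold changes, irr day 7 minus non-irr NSCs, of the 42 members (red) and of 10 other gene lists (blue, number of genes in brackets), with the median of each as a black bar; the grey bar spans the 5th to the 95th percentile of all 11372 genes, -1.10 to 1.36. The median of the members, -0.93, lies between those of DNA replication (-1.51) and of the other snoRNP genes (-0.78).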

How the data were processed

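The authors read the arrays with GCOS and normalized them with RMA in the R environment with Bioconductor packages, and the deposited values are log2 signals of 45101 probe sets on 8 arrays, 4 irr and 4 non-irr. All arrays were used. Gene names came from the platform annotation, with symbols updated by Entrez number: 34958 carried 1 symbol, 932 several and 9211 none, and only those with 1 were used by gene. The 64 control probe sets were set aside, and probe sets with an intensity over 100 (log2 6.64) on at least 1 array were kept (21919 probe sets, 11372 genes). All 42 members passed on all 8 arrays, so that none passed through 1 group alone. The test was limma 3.58.1 in R 4.3.3, two-sided, adjusted by Benjamini-Hochberg over these 21919, called at an adjusted p under 0.05 and, separately, at 2-fold, as in the methods. Pairs of members and the control gaps were compared with exact permutation tests over the arrays. The scripts were tested on simulated data. All members are named; those described in full are the largest changes per role, any that moved the other way and the pairs tested, and of each other list at most the 3 called genes with the largest change. Members, pairs and gene lists were chosen with earlier results of these data known, so no list is independent evidence. The labels number the replicates but do not say whether they were separate cultures, so p-values measure the spread between these samples. The number of arrays limits the precision. Promoter windows are from RefSeq. Alternatives tried were 3 other filters, 3 other scalings, 4 other limma settings including a replicate block, leaving out arrays, and 2 other choices of probe set. Figures were drawn with matplotlib.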

Additional observations from a re-analysis of the deposited data

Results flagged for a closer look

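In 6 of the 84 sets of 4 arrays examined (42 members in each group), 1 array stood apart from the other 3 by Dixon's criterion at its 95% level, which chance alone meets in about 1 of 20 sets. Nip7 was 10.77 on irr replicate 3, against 10.65 to 10.66 on the other irr arrays, and Noc3l was 7.63 on irr replicate 2, against 7.81 to 7.84. Among non-irr arrays, Ubtf was 11.28 on replicate 4, against 11.12 to 11.13, Polr1c was 11.71 on replicate 1, against 11.58 to 11.60, Mybbp1a was 11.94 on replicate 2, against 12.05 to 12.07, and Nob1 was 10.25 on replicate 2, against 10.32 on each of the others. Each gap is smaller than the difference between the groups, except for Ubtf, whose log2 fold change was 0.014 without that array.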

How the results depend on the processing

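Under 21 other settings, 0 members were higher, and 41 were lower except where noted. Leaving out 1 array at a time gave 41 to 41 members lower, with 18 to 19 lower at least 2-fold. The median then ran from -0.95 to -0.92, and 12 to 14 pairs were counted as differing. In the leave-outs with 12 pairs, the smallest possible p gave an adjusted p at the threshold itself, not under it. No pair strictly passed there, so these leave-outs cannot show whether the pair calls are stable. The median was -0.81 with arrays centred on 7 reference genes. Of these 7, 3 were themselves lower and 2 higher in irr NSCs, with log2 fold changes from -0.66 to 0.22. This centring adds 0.12 to every log2 fold change and moves the median of all probe sets to 0.11. Then 13 members were lower at least 2-fold, and 28.0% of all genes were lower against 37.1% as deposited. The median was -0.96 after a further quantile normalization, -0.97 without both irr replicates 3 and 4 (20 members lower at least 2-fold), and -1.01 with plain probe set identifiers only (38 members measured, 38 lower). Ubtf turned to 0.10 with reference centring and ran from -0.037 to 0.014 when 1 array was left out, above 0 only without non-irr replicate 4, its highest array; the cause was not tested. With the probe sets of each gene averaged, Ubtf was called lower (-0.30, adjusted p = 0.0035) and the call of Gnl2 was lost (-0.13, adjusted p = 0.091), as the probe sets of these genes disagree. Against a 1.5-fold minimum (limma treat), 30 members remained, and Npm1, Ncl, Nop10, Pes1, Rrn3, Nob1, Utp20, Gnl2, Nop14, Surf6 and Noc3l did not pass. With the replicate number as a block, 41 members were lower and 19 at least 2-fold. The deviations of same-numbered arrays from their group means correlated at 0.043, 0.38, -0.21 and 0.51, so the numbers were not taken as pairs. All 42 members were over an intensity of 100 on all 8 arrays, so no value of theirs is at background.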
